A study of Mus musculus with 12 samples.

Results

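The cyclin-dependent kinase (CDK) inhibitor and p53 genes were examined in Ras-transformed sarcomas grown from cells of p16/p19 knockout mice. The set held 9 genes taken by symbol: the INK4 inhibitors Cdkn2a, Cdkn2b and Cdkn2c, the CIP/KIP inhibitors Cdkn1a, Cdkn1b and Cdkn1c, and the p53 pathway genes Trp53, Mdm2 and Ccng1. Of these 9, 7 had a probeset of their own on the array and all 7 passed the filter on low values, among 16573 genes tested of 19938 named. Cdkn1a was represented only by a probeset whose annotation also lists 4930567H12Rik, and Trp53 was not analysed here.

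RNA came from 12 tumors of the J2A line, 4 in each of 3 groups, hybridised to Affymetrix mouse gene arrays. J2A is a line of aortic myofibroblasts from p16/p19/Vnn1-/- mice on the C57BL/6 background. All 3 groups thus lacked p16, p19 and the endogenous Vnn1 in the grafted cells, and no group with an intact Cdkn2a locus was on the arrays. The cells were transformed with a retroviral vector that carried human H-RasV12 fused to GFP behind an internal ribosome entry site. R tumors received Ras alone, VR tumors also received intact mouse Vnn1 behind the cytomegalovirus promoter, and VdR tumors received a catalytically deficient Vnn1 in the same position. Vnn1 encodes a pantetheinase, an enzyme that cleaves pantetheine. The cells were grafted under the skin of the back of nude mice, which lack a thymus but keep their own Cdkn2a and Vnn1 in vessels, blood cells and stroma. Per the labels, tumors were collected at 2 to 3 weeks according to their growth, whereas the methods name a single day for all groups. The labels call the samples tumors but their extraction text speaks of sorted cell subsets without naming any. The methods mention no sort for the arrays, and the paper states that their RNA came from total tumor extracts. The age of the hosts is not given in the sources used here. All tumors derived from 1 line, so the 4 tumors of a group repeat the graft and not the transduction.

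INK4 proteins bind Cdk4 and Cdk6 and keep them from D-type cyclins, whereas CIP/KIP proteins bind assembled cyclin-CDK complexes. Both families hold the retinoblastoma protein in its unphosphorylated, E2F-binding state. The Cdkn2a locus also encodes p19Arf, which binds Mdm2 and so spares p53 from degradation. p53 in turn induces Cdkn1a, Mdm2 and Ccng1, and in fibroblasts oncogenic Ras normally engages both arms as a senescence barrier.

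Arrays within a group correlated at 0.992 to 0.997 across named genes, and array medians over probesets lay between 6.66 and 6.77 on the log2 scale. Vnn1 followed its labels, at 5.70 ± 0.13 in R, 11.56 ± 0.16 in VdR and 10.87 ± 0.34 in VR (log2, SD, n = 4 each). It was lower in VR than in VdR, by -0.69 (limma, adjusted p = 0.0292), without overlap. VR and VdR tumors thus differed in Vnn1 RNA level as well as in the form of the enzyme. The fibroblast collagen gene Col1a1 lay between 12.26 and 13.18 in all 12 tumors but was not even between groups. It spanned 12.26 to 12.72 over R and 13.00 to 13.18 over VR, with VdR overlapping both. limma called it higher in VR than in R, by 0.54. In bulk samples such as these, fewer cells of a type and less RNA per cell cannot be told apart. No batch was given in the sources used here.

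Promoter windows of 300 bases, from 250 before to 50 after each annotated start, were available from RefSeq (GRCm38.p6) for 8 of the 9 genes, in 11 windows. The p53 consensus decamer, a pattern that reads the same on both strands, occurred in 4 of these windows, those of Cdkn1a, Mdm2, Trp53 and Ccng1, and in 8.36% of all 32851 windows. The stretches around it are shown for Cdkn1a, Mdm2 and Ccng1, the p53-induced genes of the set, with each decamer in capitals. Their positions are chr17:29090877-29090966 on the plus strand, chr10:117710895-117710984 on the minus strand and chr11:40755422-40755511 on the minus strand.
Cdkn1a: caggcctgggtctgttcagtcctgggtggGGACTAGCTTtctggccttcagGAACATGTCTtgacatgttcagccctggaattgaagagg
Mdm2: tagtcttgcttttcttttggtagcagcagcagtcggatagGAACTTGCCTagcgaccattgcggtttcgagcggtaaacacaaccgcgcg
Ccng1: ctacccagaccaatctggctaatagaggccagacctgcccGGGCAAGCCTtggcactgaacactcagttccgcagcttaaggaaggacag

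Cdkn2c, the gene of the set with the largest difference between groups, has 2 annotated starts, and the array value does not tell which start was used. The 120 bases before each start are shown with the GC box GGGCGG in capitals (searched as GGGCGG and its reverse complement, present in 35.7% of all windows). They lie at chr4:109666757-109666876 and chr4:109665373-109665492 on the minus strand.
Cdkn2c, first start: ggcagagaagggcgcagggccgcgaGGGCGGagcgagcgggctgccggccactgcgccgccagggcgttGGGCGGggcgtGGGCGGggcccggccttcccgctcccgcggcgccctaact
Cdkn2c, second start: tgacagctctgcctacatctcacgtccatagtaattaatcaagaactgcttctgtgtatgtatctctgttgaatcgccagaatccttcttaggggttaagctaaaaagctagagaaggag
The full window of the first start was 73.3% G and C with 4 GC boxes, and that of the second was 44.0% G and C with none. A match is a description of the letters and was not tied to any array value.

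To ask whether either form of Vnn1 went with a change in these genes, the groups were compared pairwise with limma over all 12 arrays, with p-values adjusted over all genes tested (Benjamini-Hochberg, threshold 0.05). In VR against R tumors, Cdkn2c, Mdm2 and Ccng1 were higher, 3 of 7 measured members, where 13.6% of all genes tested were called higher. No member was called lower, where 7.48% of all genes were, although Cdkn2b and Cdkn1b had an unadjusted p under 0.05. The 2 groups did not overlap for 4 members, these 3 and Cdkn1b, and for 25.8% of all genes. In VdR against R tumors, only Cdkn1b was called, and it was lower, against 2.81% of all genes. None of the 7 was called higher, where 6.58% of all genes were, and 3 members had an unadjusted p under 0.05, Cdkn2c, Cdkn1b and Ccng1. Values did not overlap for Cdkn1b and Ccng1, and for 14.2% of all genes. In VR against VdR tumors, limma called no member, where 1.77% of all genes were higher and 1.67% lower. Cdkn2c and Mdm2 had an unadjusted p under 0.05 there, and only Mdm2 did not overlap, as was the case for 12.6% of all genes. The median log2 difference of the 7 members was -0.083 in VR against R (all genes -0.015), -0.046 in VdR against R (all genes 0.0038) and 0.041 in VR against VdR (all genes -0.018). The comparisons share groups of tumors and are not independent of each other.

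**Figure D1:**
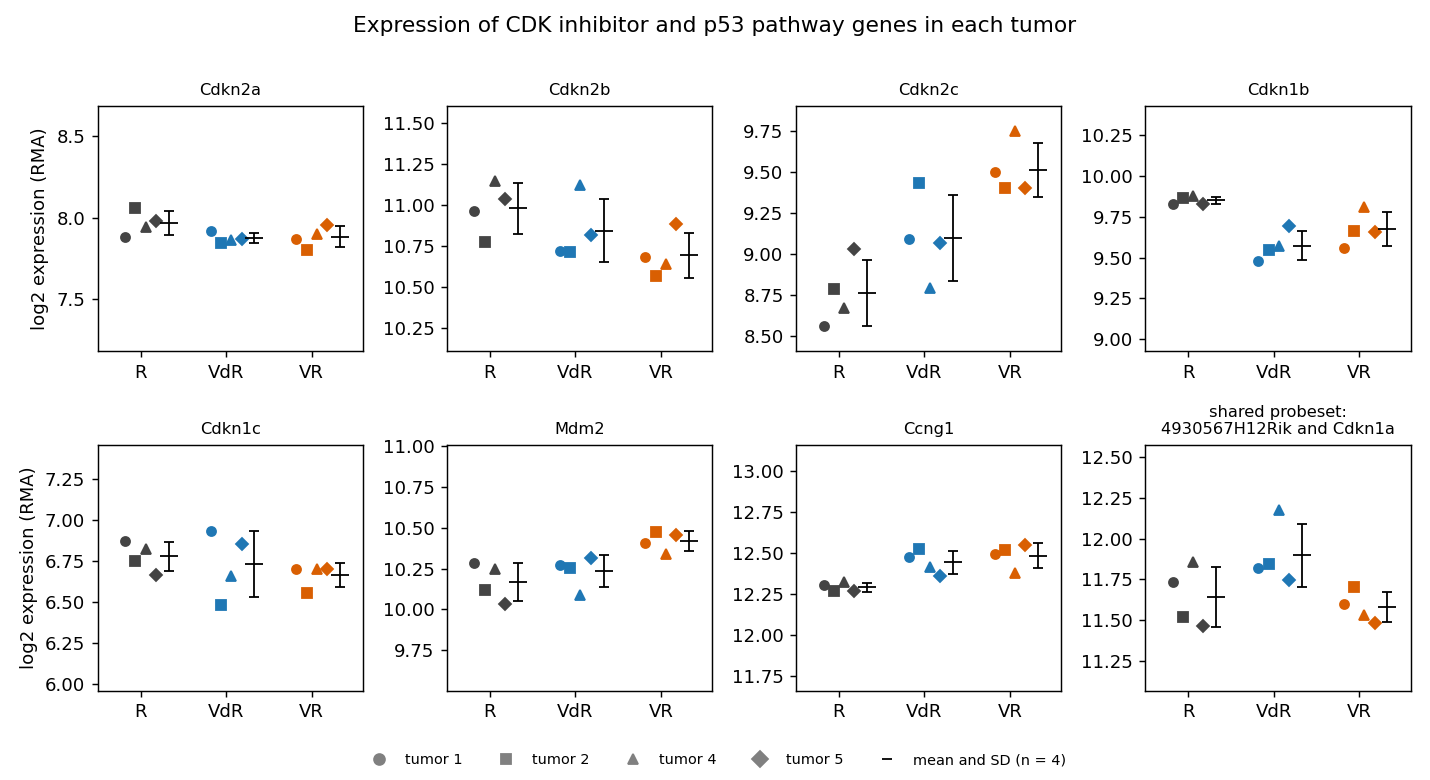
Log2 expression (RMA, y axis) of 7 CDK inhibitor and p53 pathway genes and of the probeset shared by 4930567H12Rik and Cdkn1a, in each of 12 tumors by group (x axis), all panels spanning the same log2 range. Symbols are tumors by number, and bars are mean and SD of 4 tumors; the 4 VR tumors lie above the 4 R tumors for Cdkn2c, Mdm2 and Ccng1, and the 4 R tumors lie above the others for Cdkn1b.

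Cdkn2a encodes p16 and p19Arf (chr4:89274473-89294619), and its deletion defines the cell line. Its probeset read 7.88, 8.06, 7.94 and 7.98 in R tumors 1, 2, 4 and 5. It read 7.92, 7.84, 7.86 and 7.87 in the VdR tumors and 7.87, 7.80, 7.90 and 7.96 in the VR tumors of the same numbers. All 12 values thus lay between 7.80 and 8.06, with overlap between every pair of groups. None of the 3 differences passed the test. They were -0.083 (VR minus R, 95% confidence interval -0.20 to 0.031), -0.092 (VdR minus R, -0.21 to 0.022) and 0.0093 (VR minus VdR, -0.10 to 0.12), with adjusted p of 0.279, 0.328 and 0.942 in limma. Where the probes lie relative to the deleted part is not given in the sources used here, and no tumor with an intact locus was measured. The value therefore checks neither the deletion nor the host's share, and it does not separate p16 from p19Arf transcripts.

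Cdkn2b, the neighbour of Cdkn2a (chr4:89306289-89311032), encodes the INK4 protein p15. It read 10.96, 10.78, 11.15 and 11.03 in the R tumors, 10.72, 10.71, 11.12 and 10.82 in the VdR tumors, and 10.68, 10.56, 10.64 and 10.88 in the VR tumors, in the order 1, 2, 4 and 5. The R and VR values overlapped through R tumor 2 and VR tumor 5. The mean was 1.22-fold higher in R than in VR, a log2 difference of -0.29 ± 0.11 (SE, VR minus R), and it did not pass the test (limma, adjusted p = 0.0739; two-sided exact permutation p = 0.0571). It passed without R tumor 2 (adjusted p = 0.0365), without VR tumor 5 (0.0440), without VdR tumor 4 (0.0364) and with array weights (0.0187). VdR tumors differed by -0.14 from R (-0.37 to 0.093, adjusted p = 0.488) and VR tumors by -0.15 from VdR (-0.38 to 0.080, adjusted p = 0.488). On the other sides of the locus, Mtap, a methylthioadenosine phosphorylase gene, had group means of 10.38, 10.36 and 10.40 in R, VdR and VR, with no difference called. Dmrta1, a DM-domain gene, was lower in VdR than in R, at 9.03 ± 0.32 against 9.74 ± 0.14 (SD, n = 4 each; limma, adjusted p = 0.0347), a call lost without any one of R tumors 1, 4 and 5 or VdR tumors 2 and 4 (adjusted p 0.0646 to 0.100). Its VR tumors lay at 9.27 ± 0.39, with an adjusted p of 0.0972 against R.

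Cdkn2c (chr4:109660876-109666756) encodes the INK4 protein p18, is not part of the deleted locus, and is an E2F-responsive gene. It read 8.56, 8.79, 8.67 and 9.03 in the R tumors. The VR tumors read 9.50, 9.40, 9.75 and 9.40, so that all 4 lay above every R tumor. The VdR tumors read 9.09, 9.43, 8.79 and 9.06, between the other groups and overlapping both. Cdkn2c was 1.68-fold higher in VR than in R, a log2 difference of 0.75 ± 0.13 (SE; 95% confidence interval 0.46 to 1.05; limma, adjusted p = 0.00237). The two-sided exact permutation p was 0.0286, the smallest that 4 against 4 tumors allow. The call held in every fit that left out 1 tumor. VdR exceeded R by 0.33 (0.040 to 0.63, adjusted p = 0.156), and VR exceeded VdR by 0.42 (0.13 to 0.71, adjusted p = 0.107). The VdR call was made with array weights (0.46, adjusted p = 0.0270), and the difference between VR and VdR passed without VdR tumor 2, the highest of its group (0.53, adjusted p = 0.0490). Neither passed in the fit over all 12 tumors. Cdkn2d, the remaining INK4 gene, differed by 0.077 between VR and R (adjusted p = 0.525).

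The Cdkn2c values are set beside a list of 20 measured genes of S and M phase. The mean log2 level of that list was 10.10 to 10.71 over the R tumors, 10.22 to 10.62 over VdR and 10.39 to 10.51 over VR. R tumor 5 had the highest list level of all 12 tumors (10.71) and the highest Cdkn2c of its group, yet its Cdkn2c (9.03) lay below every VR tumor. R tumor 4 had the lowest list level (10.10) but not the lowest Cdkn2c of R, which was in R tumor 1. VdR tumor 4 was lowest of its group in both. VR tumor 4 had the highest Cdkn2c of all (9.75) with a list level of 10.40, below 2 of the other VR tumors. Orders by list level and by Cdkn2c thus matched in some tumors and not in others. Between VR and R, the median log2 difference of the list was 0.094. There, limma called 1 of the 20 genes higher and none lower, where 13.6% of all genes were higher and 7.48% lower. That gene, Birc5, an inhibitor of apoptosis at mitosis, rose by 0.47 (adjusted p = 0.0293). The number called was 3 without R tumor 5, 2 without VdR tumor 4 and 0 without any one of R tumors 1, 2 and 4 or VR tumors 1, 2 and 4, with adjusted p for Birc5 from 0.0597 to 0.0899 in those 6 fits. The part of cycling in the Cdkn2c difference was not tested.

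Cdkn1b encodes p27 (chr6:134920401-134925525), a CIP/KIP inhibitor of cyclin E-Cdk2. It read 9.83, 9.86, 9.88 and 9.83 in the R tumors, with an SD of 0.023, the smallest of the 7 genes in that group. The VdR tumors read 9.48, 9.54, 9.57 and 9.69, all below every R tumor. The VR tumors read 9.56, 9.66, 9.81 and 9.66, also all below R. The mean in R was 1.21-fold that in VdR, a log2 difference of -0.28 ± 0.062 (SE, VdR minus R; limma, adjusted p = 0.0144; two-sided exact permutation p = 0.0286). VR differed from R by -0.18 (-0.31 to -0.043), which did not pass (adjusted p = 0.0608), although it did without VR tumor 4 (0.0294) and after cyclic loess (0.0423). VR exceeded VdR by 0.10 (-0.033 to 0.23, adjusted p = 0.415), so that no difference between the 2 Vnn1 groups was called. A second probeset of Cdkn1b lay between 6.29 and 6.75 in all 12 tumors with overlapping groups. It gave -0.14 for VdR minus R (adjusted p over probesets 0.550). With the mean of both probesets, the VdR difference was -0.21 and no longer passed (limma, adjusted p = 0.0899).

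Cdkn1a (chr17:29090979-29100722) encodes p21, the CIP/KIP inhibitor most directly induced by p53, but its probeset is shared with 4930567H12Rik in the annotation and the value cannot be assigned to either gene. It read 11.74, 11.52, 11.86 and 11.46 in the R tumors, 11.82, 11.84, 12.18 and 11.75 in the VdR tumors, and 11.60, 11.70, 11.54 and 11.49 in the VR tumors. All 4 VR tumors lay below all 4 VdR tumors, and the R tumors overlapped both. VR minus VdR was -0.32 (-0.55 to -0.080) with an exact two-sided permutation p of 0.0286, and did not pass over all probesets (limma, adjusted p = 0.169). VR minus R was -0.062 (adjusted p = 0.720), and VdR minus R was 0.25 (adjusted p = 0.226).

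Cdkn1c, an imprinted gene that encodes p57 (chr7:143458339-143461059) did not differ detectably between groups. The R tumors spanned 6.67 to 6.87, the VdR tumors 6.48 to 6.93 and the VR tumors 6.55 to 6.70. The groups overlapped throughout. The differences were -0.11 (VR minus R, -0.31 to 0.083), -0.046 (VdR minus R, -0.24 to 0.15) and -0.067 (VR minus VdR, -0.26 to 0.13), with adjusted p of 0.387, 0.818 and 0.740 in limma. Of 16 measured imprinted genes, 1 was called higher and 2 lower in VR against R (13.6% and 7.48% of all genes), with a median of -0.087. Those lower were Phlda2 and Slc22a18, which lie in the same imprinted cluster as Cdkn1c. Phlda2, a growth regulator, fell by 1.20 against R (adjusted p = 0.00227) and by 1.33 against VdR (adjusted p = 0.0122), and Slc22a18, a transporter, fell by 0.42 against R (adjusted p = 0.00319). Ndn, a growth suppressor of another cluster, rose by 1.45 in VR (adjusted p = 0.0105). In VdR against R, only Sgce was lower, by -0.40 (adjusted p = 0.00314), and none was higher (2.81% and 6.58% of all genes). In VR against VdR, Phlda2 was the only 1 of 16 called, where 1.67% of all genes were lower and 1.77% higher. The VR count higher was 2 without R tumor 1, R tumor 2 or VR tumor 1, and the VdR counts were 1 higher and 2 lower without R tumor 5.

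**Figure D2:**
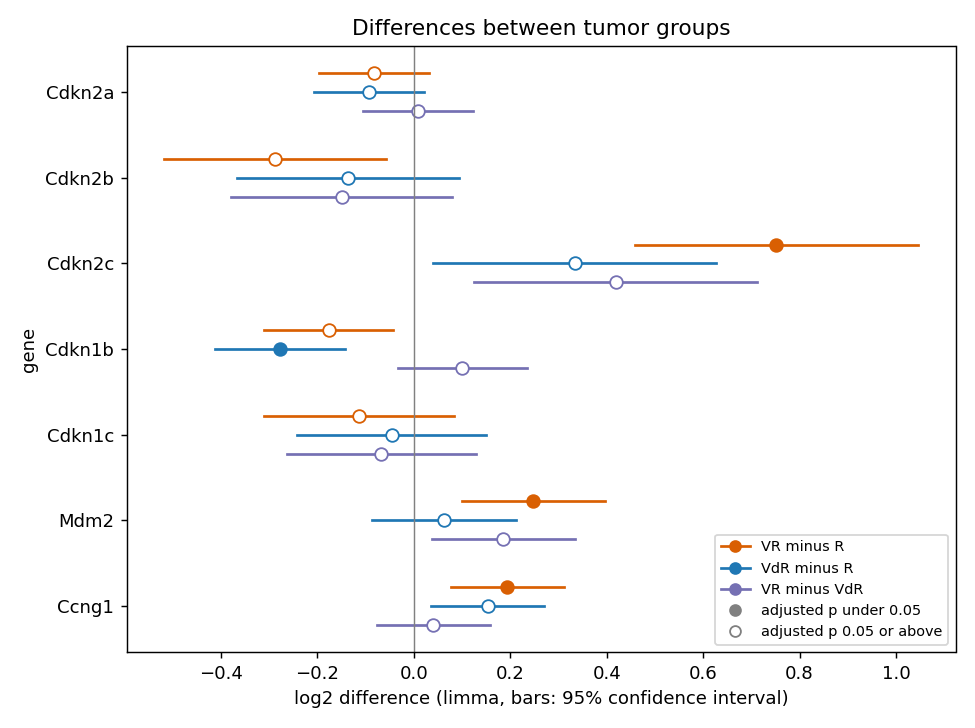
Log2 difference (x axis) of each of 7 genes (y axis) between the groups VR and R, VdR and R, and VR and VdR, with points for the limma estimate and bars for its 95% confidence interval. Filled points passed an adjusted p of 0.05, which was the case for Cdkn2c, Mdm2 and Ccng1 in VR minus R and for Cdkn1b in VdR minus R.

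Mdm2 (chr10:117688875-117710758), the ubiquitin ligase that turns over p53 and is itself p53-induced, read 10.28, 10.12, 10.25 and 10.03 in the R tumors. The VdR tumors read 10.27, 10.25, 10.09 and 10.32, in the range of R. The VR tumors read 10.41, 10.47, 10.34 and 10.45, above all 8 other tumors. Mdm2 was 1.19-fold higher in VR than in R, a log2 difference of 0.25 ± 0.069 (SE; 95% confidence interval 0.10 to 0.40; limma, adjusted p = 0.0226; exact two-sided permutation p = 0.0286). The call was lost without R tumor 2 (adjusted p = 0.0533), R tumor 5 (0.0544), VR tumor 2 (0.0629) or VR tumor 5 (0.0538). VR exceeded VdR by 0.19 (0.037 to 0.33), which had an exact permutation p of 0.0286 and did not pass over all genes (adjusted p = 0.156). VdR differed from R by 0.062 (-0.087 to 0.21, adjusted p = 0.652).

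Ccng1 (chr11:40748552-40755309), which encodes the p53-induced cyclin G1, read 12.30, 12.27, 12.32 and 12.27 in the R tumors. The VdR tumors read 12.48, 12.52, 12.42 and 12.36, and the VR tumors 12.49, 12.52, 12.38 and 12.55. Both Vnn1 groups lay wholly above R and overlapped each other. The rise in VR over R was 1.14-fold, a log2 difference of 0.19 ± 0.054 (SE; 0.076 to 0.31; limma, adjusted p = 0.0235; exact permutation p = 0.0286). It did not pass without R tumor 1 (adjusted p = 0.0505), R tumor 2 (0.0505), VR tumor 1 (0.0518), VR tumor 2 (0.0630) or VR tumor 5 (0.0650), nor after centring arrays on their medians (0.0802). VdR exceeded R by 0.15 (0.036 to 0.27), with an exact permutation p of 0.0286 and an adjusted p of 0.103. VR and VdR differed by 0.041 (-0.076 to 0.16, adjusted p = 0.736).

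Beyond Mdm2 and Ccng1, further p53 target genes differed between VR and R tumors, most of them higher in VR. Of 28 measured targets, 8 were called higher (13.6% of all genes were) and 2 lower (7.48% of all genes), with a median of 0.13 (all genes -0.015), and 18 did not pass. Mdm2 and Ccng1 are on this list and are counted among the 8. Sesn1, a sestrin that restrains growth signalling under stress, read 9.07, 9.35, 9.07 and 9.10 in R and 9.96, 9.84, 10.04 and 9.98 in VR, a rise of 0.81 (limma, adjusted p = 2.46e-04). Ddb2, a damage-recognition protein of nucleotide excision repair, rose by 0.37 (adjusted p = 0.00224), and Triap1, an inhibitor of the apoptosome, by 0.34 (adjusted p = 0.00906). The other 3 that rose were the death receptor gene Fas (0.52), Zmat3 (0.34) and Ei24 (0.20). Of the 2 that fell, Gadd45a, a growth-arrest and damage-response gene, read 10.39, 10.06, 10.72 and 9.35 in R and 8.56, 8.50, 8.65 and 9.26 in VR, a difference of -1.39 (adjusted p = 0.00641). Pmaip1, which encodes the pro-apoptotic protein Noxa, differed by -0.37 (adjusted p = 0.0150). The list thus did not move in 1 direction. Its counts were 5 higher and 3 lower without VR tumor 5, and Zmat3 lost its call without R tumor 4 (adjusted p = 0.0593) or VR tumor 5 (0.0542).

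In VdR against R tumors, 6 of 28 p53 targets were called higher (6.58% of all genes were) and 1 lower (2.81%), with a median of 0.15 (all genes 0.0038). Sesn1 read 9.89, 10.06, 9.96 and 9.59 in the VdR tumors and rose by 0.73 (limma, adjusted p = 7.20e-04). Ei24 rose by 0.28 (adjusted p = 0.00514), and both Sesn1 and Ei24 kept their calls in every fit that left out 1 tumor. Sesn2, another sestrin, rose by 0.37 (adjusted p = 0.0203), and this was lost without R tumor 1 (0.0604), R tumor 2 (0.0510) or VdR tumor 2 (0.0644). Gadd45a read 8.37, 8.71, 9.56 and 8.84 and differed by -1.26 (adjusted p = 0.0193), which was lost without R tumor 1 (0.0617), R tumor 4 (0.0628), VdR tumor 1 (0.0623) or VdR tumor 2 (0.0611). The number higher was 3 without R tumor 1 or R tumor 2 and 2 without VdR tumor 2, and it was 3 after array median centring or cyclic loess. Between VR and VdR, 1.77% of all genes were higher and 1.67% lower, and the median of the targets was -0.031 (all genes -0.018). Gtse1, a G2 and S phase gene that binds p53, was the only one of 28 called, at -0.43 (adjusted p = 0.0463). That call was lost without any one of 9 tumors (adjusted p 0.0586 to 0.115), which are all but R tumors 2 and 5 and VR tumor 1.

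**Figure D3:**
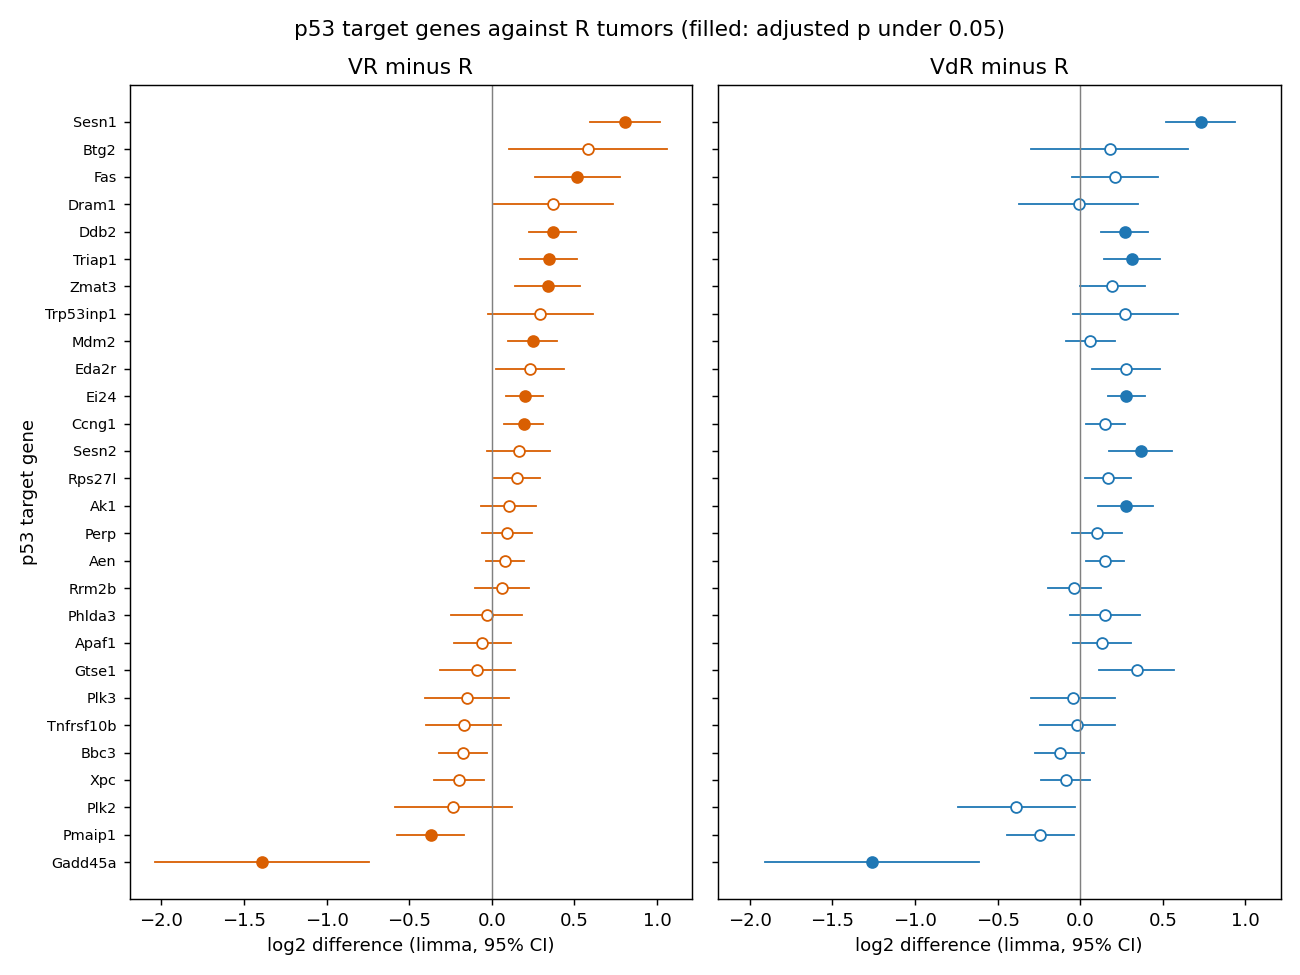
Log2 difference (x axis) against R tumors of 28 p53 target genes (y axis, ordered by VR minus R), for VR on the left and VdR on the right, with limma estimates as points and 95% confidence intervals as bars. Filled points passed an adjusted p of 0.05, 10 in VR and 7 in VdR, with Sesn1 highest and Gadd45a lowest in both.

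Among 16 measured regulators and relatives of p53, 4 passed as higher in VR against R (13.6% of all genes did) and none as lower (7.48%), with a median of 0.014. The number higher was 1 without R tumor 2, VR tumor 2 or VR tumor 5, 2 without R tumor 1, R tumor 4, VR tumor 1 or VR tumor 4, and 0 to 6 over 22 alternatives. They were Mdm2 and the damage-response kinase genes Atr (0.56, adjusted p = 0.0122), Atm (0.41, adjusted p = 0.0354) and Prkdc (0.38, adjusted p = 0.0439). The call of Atm was lost without any one of R tumors 1, 2 and 4 and the 4 VR tumors (adjusted p 0.0527 to 0.105). That of Prkdc was lost without the same 7 tumors or without VdR tumor 1 or 4 (0.0523 to 0.129). Mdm4, a partner of Mdm2, differed by 0.055 (adjusted p = 0.736). In VdR against R and in VR against VdR, limma called none of the 16. At an unadjusted p under 0.05 there were 0 in VdR against R and 4 in VR against VdR, all higher, and 1 passed in the latter without R tumor 4, R tumor 5 or VdR tumor 2.

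Of 25 genes of the G1 machinery on which the inhibitors act, 2 were higher and 1 lower in VR against R, fewer than the 13.6% and 7.48% of all genes, with a median of 0.034. The list as a whole is not described as moving. Rb1, the retinoblastoma gene, rose by 0.51 (limma, adjusted p = 0.00540), from 8.84, 9.19, 8.85 and 9.09 in R to 9.49, 9.63, 9.50 and 9.40 in VR. Its relative Rbl2 rose by 0.22 (adjusted p = 0.0112), a call lost after array median centring (0.0569), and the repressor gene E2f5 was lower by -0.27 (adjusted p = 0.0484). E2f5 lost its call without any one of 9 tumors (0.0547 to 0.132), which are all but VdR tumors 1 and 4 and VR tumor 1. The kinase and cyclin genes Cdk4 (0.012), Cdk6 (0.096) and Ccnd1 (-0.030) did not pass. In VdR against R, 2 of the 25 were higher and 1 lower, near the 6.58% and 2.81% of all genes. Ccnd3 (0.24, adjusted p = 0.0232) and Cdkn3 (0.47, adjusted p = 0.0380) were higher and E2f3 (-0.33, adjusted p = 0.0220) was lower. The calls of Ccnd3 and E2f3 were each lost in 3 fits without 1 tumor, those without VdR tumor 1, VdR tumor 4 and R tumor 2 (Ccnd3) or R tumor 1 (E2f3), with adjusted p from 0.0566 to 0.0605. The call of Cdkn3 was lost without any one of R tumors 1, 2 and 4, VdR tumors 1, 2 and 5 or VR tumor 4 (0.0514 to 0.113). Between VR and VdR, only Cks1b, a CDK subunit that helps degrade p27, was called, at -0.37 (adjusted p = 0.0274), and not without any one of VdR tumors 1, 2 and 5 or VR tumors 2, 4 and 5 (0.0504 to 0.0816). Over all genes, 1.77% were higher and 1.67% lower in VR against VdR.

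Regulators of the Ink4 locus and of senescence gave 1 gene higher and 1 lower of 18 measured in VR against R, below the share of all genes in either direction, with a median of -0.073. Tbx3, a T-box repressor of p19Arf, read 9.71, 9.24, 9.85 and 9.39 in the R tumors. It read 8.59, 8.28, 8.35 and 8.55 in the VR tumors and 8.39, 8.25, 8.95 and 8.89 in the VdR tumors, all 8 below every R tumor. The differences from R were -1.10 in VR (limma, adjusted p = 0.00108) and -0.93 in VdR (adjusted p = 0.00514), and both calls held in every fit that left out 1 tumor. Eed, a Polycomb subunit, was higher in VR by 0.40 (adjusted p = 0.0136), while the Polycomb genes Bmi1 (0.040) and Ezh2 (-0.12) did not pass. Dmtf1, an activator of p19Arf, was lower in VdR by -0.27 (adjusted p = 0.0378), a call lost without any one of R tumors 1, 2 and 4, VdR tumors 1 and 2 or VR tumor 1 (0.0514 to 0.0968). Tbx3 and Dmtf1 were the 2 of 18 called lower in VdR against R and none was higher, where 2.81% and 6.58% of all genes were. The number lower in VR was 3 without R tumor 2 and 2 without VdR tumor 4. Between VR and VdR, limma called none of the 18, with all tumors or without any 1 of them, and 0 had an unadjusted p under 0.05.

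Markers of several cell types moved with the groups. The paper states that the array RNA came from total tumor extracts, although the labels' extraction text speaks of sorted cell subsets. Of 17 macrophage markers, 14 were called higher in VR and 16 in VdR than in R, and none was called lower. Over all genes, 13.6% were higher and 7.48% lower in VR against R, and 6.58% and 2.81% in VdR against R. At an unadjusted p under 0.05, 16 markers were higher and 1 lower in VR against R. Over the alternatives, 0 to 1 marker was called lower there. The mean log2 level of the macrophage list lay at 9.23 to 9.54 over R, 10.26 to 10.54 over VdR and 10.17 to 10.33 over VR tumors. Each called difference of a member against R thus ran alongside a higher macrophage list, and limma called no macrophage marker between VR and VdR, where 5 were lower in VR at an unadjusted p under 0.05. Of 10 fibroblast genes, 7 were higher in VR than in R. The list spanned 11.24 to 11.62 over R, 11.40 to 11.66 over VdR and 11.69 to 11.92 over VR tumors. The grafted cells are myofibroblasts themselves, so these genes do not separate tumor cells from host stroma. Of 9 endothelial markers, 3 were higher in VR than in R, with list levels of 8.77 to 9.30 over R, 8.91 to 9.27 over VdR and 9.36 to 9.74 over VR tumors. Of 8 tested markers of T and NK cells, 2 were higher and 1 lower in VR against R, and 1 of 5 tested neutrophil markers was higher. In VR against VdR, 2 of 9 endothelial, 2 of 10 fibroblast and 1 of 8 T and NK cell markers were higher. None of them was lower, where 1.77% of all genes were higher and 1.67% lower. Over the alternatives, 0 to 5, 0 to 3 and 0 to 2 were higher there. Skeletal muscle, keratinocyte and adipocyte lists gave no call in any comparison and 0 genes at an unadjusted p under 0.05, although the muscle list ranged from 6.56 to 9.43 over the 12 tumors. An array value of 0 does not exist after RMA, so no marker can be called absent. The part of these cell types in the members' differences was not tested.

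**Figure D4:**
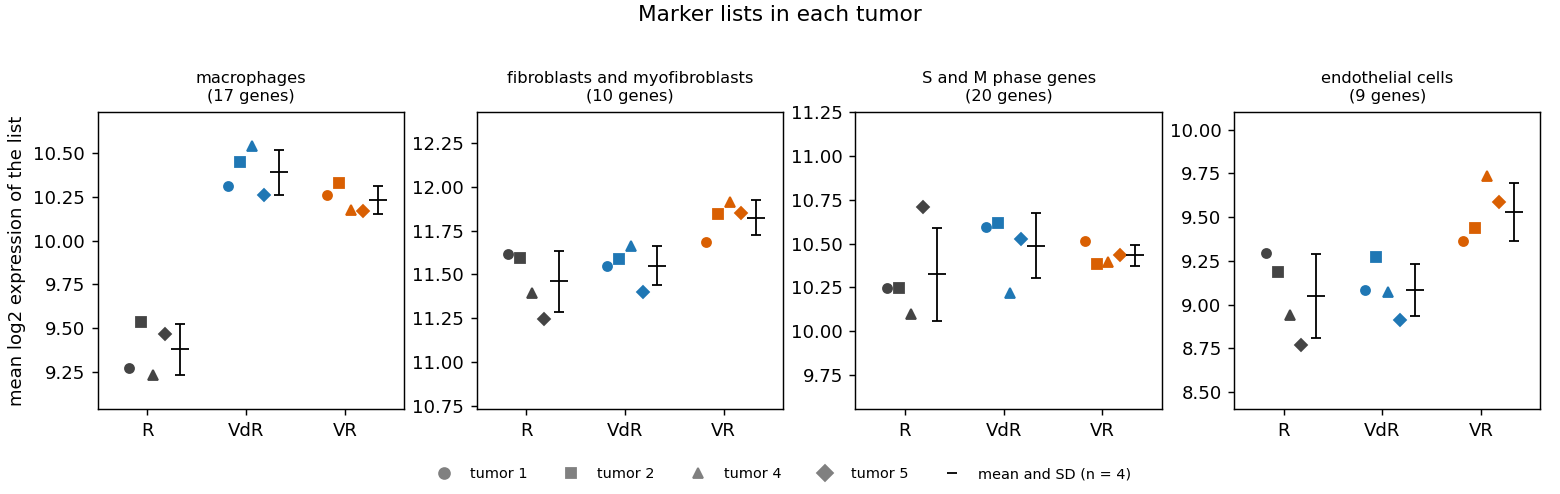
Mean log2 expression (y axis) of 17 macrophage, 10 fibroblast, 20 S and M phase and 9 endothelial genes in each of 12 tumors by group (x axis), with symbols for tumors by number and bars for mean and SD of 4 tumors. The macrophage list lay at 9.23 to 9.54 in R and above 10.1 in every VdR and VR tumor, while the S and M phase list overlapped between groups.

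For each called member, the 3 tested genes whose levels ran most like it over the 12 tumors are given as a description, with Pearson's r over the tumors and r after subtraction of group means. Cdkn2c was followed by Ccdc15 (0.95 and 0.85), Nudt12 (0.95 and 0.86) and Irak1 (0.95 and 0.84). Ccng1 was followed by Ano3 (0.96 and 0.85), Slc33a1 (0.95 and 0.85) and Snx5 (0.94 and 0.80). For Mdm2 they were Atg3 (0.91 and 0.80), Sh3bgrl (0.91 and 0.85) and Rpp38 (0.91 and 0.74). For Cdkn1b they were Parp8 (0.91 and 0.69), Gfra1 (0.91 and 0.65) and Slco5a1 (0.91 and 0.71). None of these 12 genes was on the cell cycle, p53 or cell marker lists, and they were picked as the highest over all genes tested.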

How the data were processed

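RNA of 12 tumor samples, 4 per group, was hybridised by the authors to Affymetrix MoGene 1.0 ST arrays. The deposited table holds log2 expression values of probesets after robust multichip average (RMA) normalization, and the submitters' processing notes name RMA and oligo without a version. RMA places all arrays on one distribution, so a change in total RNA between groups cannot be seen, and small fold changes are compressed. No scanner file was used. The labels' extraction text mentions sorted cell subsets and the methods do not. The paper's results describe the array RNA as taken from total tumor extracts.

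Of 35556 probesets, 21789 carried 1 gene symbol, 1621 several and 12146 none in the platform annotation, and only the first kind was named, which left Cdkn1a unnamed. A gene with several probesets was represented by its brightest one on average. A gene entered the test when 4 or more arrays exceeded 5.38, which is percentile 25 of the table. limma 3.58.1 (R 4.3.3) fitted the 3 group means jointly on 12 arrays, with the Benjamini-Hochberg correction and a limit of 0.05. The fit was tested on simulated data. Single genes were also compared with exact two-sided permutation tests over tumors. Precision is limited by how many arrays there are, and the limma p-values weigh group differences against the spread between tumors of 1 line. Tumors were grouped by their labels.

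The members and gene lists were chosen with earlier results of these data known. All members were described, with the called genes of the 3 lowest adjusted p per list, comparison and direction, and the 3 genes most like each called member. Further genes (Cdk4, Cdk6, Ccnd1, Cdkn2d, Mdm4, Bmi1, Ezh2, Fas, Zmat3, Prkdc) were named after their values were seen, as background for their lists. Alternatives were other filters, the mean of probesets, robust trended moderation, array weights, array median centring and cyclic loess. Others were fits of only the groups compared, a replicate block, a minimum change, a t-test, and leaving out each tumor. The methods name a t-test for qRT-PCR and give no test per gene for the arrays.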

Additional observations from a re-analysis of the deposited data

Results flagged for a closer look

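Of the 21 sets of 4 tumors (7 genes in 3 groups), 1 held a tumor far from the other 3. Cdkn1c read 6.55 in VR tumor 2, and the other 3 VR tumors all read 6.70, so that nearly the whole range of the group came from that tumor. Chance alone marks about 1 set in 20 in this way, and the Cdkn1c comparisons did not pass with or without it.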

How the results depend on the processing

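Cdkn2c stayed higher in VR than in R in every alternative except a required change of at least 1.5-fold. That requirement left 0 of the 7 members called in VR against R and 0 in VdR against R. Leaving out 1 tumor at a time gave 1 to 4 members in VR against R, with 1 without VR tumor 2, 1 throughout in VdR against R, and 0 to 1 in VR against VdR, with 1 without VdR tumor 2. In VdR against R, 0 members were called with the mean of probesets and 2 with array weights. The sources do not say what the tumor numbers stand for. Same-numbered tumors correlated between -0.15 and 0.40 in their deviations from group means. The same number was the best match for tumor 2 in every comparison (0.40, 0.36 and 0.23). For tumor 1 it was so only in VdR against R, for tumor 5 only in VR against VdR, and for tumor 4 never. Whether the numbers pair the tumors cannot be told from these values. A replicate block by number raised the members called in VR against R from 3 to 5 by adding Cdkn2b (adjusted p = 0.0325) and Cdkn1b (0.0485). Differences that did not pass turned sign 4 times, all near 0. Cdkn1c VdR minus R was 0.037 (range without 1 tumor -0.11 to 0.037) and Cdkn2a VR minus VdR was -0.00038 without VdR tumor 2, Cdkn2a VR minus VdR was -0.015 without VR tumor 5 (range -0.015 to 0.035), and Cdkn1c VR minus VdR was 0.00032 without VdR tumor 1. The t-test lost Mdm2 in VR against R (adjusted p = 0.0586) and called 0 members in VR against VdR. Of the list genes named, it also lost Gadd45a (0.0503), Atr (0.0634), Atm (0.0983), Prkdc (0.119), E2f5 (0.0824), Eed (0.0756), Ndn (0.0981) and Birc5 (0.0897) in VR against R. In VdR against R it lost Tbx3 (0.0984), Gadd45a (0.151), Sesn2 (0.146), Ccnd3 (0.0822), Cdkn3 (0.200), E2f3 (0.138) and Dmtf1 (0.0993), and in VR against VdR it lost Phlda2 (0.0554), Gtse1 (0.0812) and Cks1b (0.0886). The cause of these changes was not tested. Fitting all probesets, chosen after seeing the data, served only probesets without a gene of their own.

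Over all genes, VR against R gave 2261 higher and 1239 lower in the fit as reported and 3346 and 2321 with array weights. It gave 1448 and 672 by the t-test, and 64 and 12 with the minimum change. VdR against R gave 1090 and 465, against 1757 and 838, 391 and 102, and 41 and 2, and cyclic loess moved its split to 862 and 689. VR against VdR gave 293 and 277, against 455 and 429, 12 and 18, and 0 and 0, and array median centring gave 255 and 152. Without R tumor 1, R tumor 4 or VdR tumor 2, VdR against R gave 684 to 714 higher and 248 to 277 lower. Without VdR tumor 1, 4 or 5 or VR tumor 2, 4 or 5, VR against VdR gave 32 to 140 and 54 to 158. The p53 targets had 5 to 11 genes higher in VR against R and 2 to 8 in VdR against R over 22 alternatives without the minimum change, with medians of 0.12 to 0.15 and 0.13 to 0.19. Arrays carry no read depth, and no detection call came with the values, so the signal of each member over background is unknown.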
